A study of Bos taurus with 4 samples.

Results

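Homeobox genes code for transcription factors that carry the homeodomain, a fold of 3 helices that reads DNA, and 104 of the 36373 transcript clusters with reads in the subcutaneous fat of Qinchuan cattle belonged to them. They were found by the word homeobox in the header of the cluster's sequence, which 147 sequences carried. Of these, 104 had a row in the count files and 43 had none and were not analysed here. The members were 21 genes of the HOX clusters and 83 other genes, and each had a symbol of its own. Each member was picked by the name of its sequence, although homeobox genes as a family were chosen with earlier results of these data known. PBXIP1 was kept because its header names the homeobox, although its product binds homeodomain proteins and is not one itself.

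Homeodomain proteins set cell identity and position along the body. The HOX genes lie in 4 clusters, HOXA to HOXD, and genes with the same number in different clusters are paralogs, so that HOXA9, HOXB9 and HOXD9 belong to paralog group 9. Genes with low numbers are used towards the head and those with high numbers towards the tail and in the outer limb, and fat cells and fibroblasts of adult mammals keep a HOX code that differs between depots. Other homeobox classes include TALE proteins such as PBX and MEIS, which bind DNA together with HOX proteins, and PRD, LIM, POU, CUT and zinc finger proteins with roles in limb, muscle, vessel and connective tissue development.

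Fat was taken from the fetus at 200 to 250 days (ATFB), from adult bulls (ATAB), from adult heifers (ATAH) and from adult steers, which are castrated males (ATAS), the adults being 18 to 24 months old. Each library was made from the pooled tissue of 5 animals, so every group had 1 library and no difference between a pair of libraries had a replicate check. The uniquely matched reads numbered 15.3 M for ATFB, 16.1 M for ATAB and 15.6 M for ATAH and for ATAS. The sex of the fetuses was not given by the labels, and the ATFB library held 12637 reads of XIST, the RNA of the inactive X chromosome, and no read of the Y-linked EIF2S3Y. Stage and sex can therefore not be told apart between ATFB and the bull or steer library.

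The adipocyte markers separated the libraries, since all 7 of the 8 listed that had a cluster were higher in ATAB and in ATAH than in ATFB and 6 of them in ATAS. Their summed expression level was 855 RPKM in ATFB and 4770, 5839 and 6043 RPKM in ATAB, ATAH and ATAS, none of them at 0 in any library. The 9 measured fibroblast and preadipocyte markers summed to 12347 RPKM in the fetus and 8340, 2684 and 3538 RPKM in bull, heifer and steer, and DLK1, a preadipocyte marker, had no read in ATAB. Of these 9, 1 was called higher and 3 lower in ATAB and 6 lower in each of ATAH and ATAS. FN1, a matrix protein, was the higher 1, with 21517 reads in ATFB and 46991 in ATAB (log2 ratio 1.05), and the collagen COL3A1 had a log2 ratio of 0.55 there with no call. The keratins KRT14 and KRT15, markers of the basal epidermis, had 147 and 129 reads in ATFB and at most 2 in any adult library. CDH1, an epithelial adhesion gene, went the other way, with 10 reads in ATFB and 187, 212 and 113 in the adults, called higher in all 3, and KRT10, KRT8 and EPCAM were not called against ATFB. The 8 measured epidermal markers summed to 17.7 RPKM in ATFB and from 7.87 to 11.6 RPKM in the adults, with 3 of them at 0 in ATAB and 2 in ATAS. SOX10, a marker of Schwann cells, had 107 reads in ATFB and 17, 23 and 40 in ATAB, ATAH and ATAS. The 6 endothelial markers summed to between 417 and 782 RPKM, the 5 mural markers to between 371 and 438 RPKM, and the 7 immune markers to between 123 RPKM in ATFB and 315 RPKM in ATAS. Most of the mural sum was ACTA2, at 353 RPKM in ATFB and 199, 225 and 223 RPKM in ATAB, ATAH and ATAS, with no call. Of the 5 mural markers, 2, 3 and 4 were called higher in ATAB, ATAH and ATAS than in ATFB, and none lower. The 6 measured skeletal muscle markers summed to 29.997 RPKM in ATFB and from 53.1 to 63.2 RPKM in the adults, MYOD1 having no read in ATFB and MYOD1 and MYF5 none in ATAH. Most of that sum was DES, which smooth muscle also expresses, at 26.6 RPKM in ATFB and 61.5, 48.2 and 52.5 RPKM in the adults, while MYH2 and ACTA1 were called lower in ATAB and the median log2 ratio of the list was -0.91 there, 0.48 in ATAH and 0.19 in ATAS. The 5 nerve markers summed to 42.8 RPKM in ATFB and from 217 to 225 RPKM in the adults, and the 2 erythroid markers to 2390 RPKM in ATFB and at most 1.54 RPKM in the adults. In bulk tissue, fewer cells of a type and less RNA per cell cannot be told apart, and the part of these differences in the homeobox values below was not tested.

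All 21 HOX genes were read in the fetal library, while the bull and heifer libraries held 17 each and the steer library 18. Of the 7 genes of paralog groups 9 to 13, a set formed after the values were seen, 4 were called lower in every adult library, as were 6.19% of all clusters. These were HOXA9, HOXD9, HOXA10 and HOXD10, which pattern the posterior trunk and the limb. HOXC5 was called higher in every adult library. The homeoboxes of HOXD9, HOXA10 and HOXD10 are shown because these genes were lower in every adult library, with that of HOXA5, the HOX gene with the highest level in ATFB. Each run was read from the cluster's sequence in the deposited file, holds the 180 bases of 60 codons, and has in capitals the 18 bases of 6 codons that begin at the invariant tryptophan codon of the third helix, which lies in the groove of the DNA.
HOXD9: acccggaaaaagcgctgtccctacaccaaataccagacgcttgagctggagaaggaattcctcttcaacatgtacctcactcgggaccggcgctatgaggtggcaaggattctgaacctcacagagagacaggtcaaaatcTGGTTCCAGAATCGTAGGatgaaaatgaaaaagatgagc
HOXA10: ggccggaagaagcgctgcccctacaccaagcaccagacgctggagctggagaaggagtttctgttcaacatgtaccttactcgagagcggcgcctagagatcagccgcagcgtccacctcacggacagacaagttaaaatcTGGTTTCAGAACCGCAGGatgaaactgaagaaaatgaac
HOXD10: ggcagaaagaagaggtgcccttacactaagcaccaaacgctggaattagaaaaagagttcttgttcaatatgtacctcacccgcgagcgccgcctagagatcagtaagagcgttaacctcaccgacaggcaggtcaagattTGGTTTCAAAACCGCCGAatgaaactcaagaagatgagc
HOXA5: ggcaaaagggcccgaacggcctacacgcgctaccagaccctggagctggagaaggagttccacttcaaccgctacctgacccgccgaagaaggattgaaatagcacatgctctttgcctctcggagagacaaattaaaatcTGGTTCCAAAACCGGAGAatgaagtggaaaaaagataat
HOXA10 and HOXD10 shared 143 of the 180 bases (79.4%), while HOXD9 shared 78.3% with HOXA10 and 62.8% with HOXA5. Over the 16 pairs of paralogs the lowest share was 75.0%, the median 81.1% and the highest 92.8%, against a median of 62.2% over the 194 pairs from different paralog groups. The 18 bases in capitals differed at 3 places between HOXA10 and HOXD10. The longest exact run that any paralog pair shared over the whole cluster sequences was 42 bases, between HOXB3 and HOXD3.

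**Figure D1:**
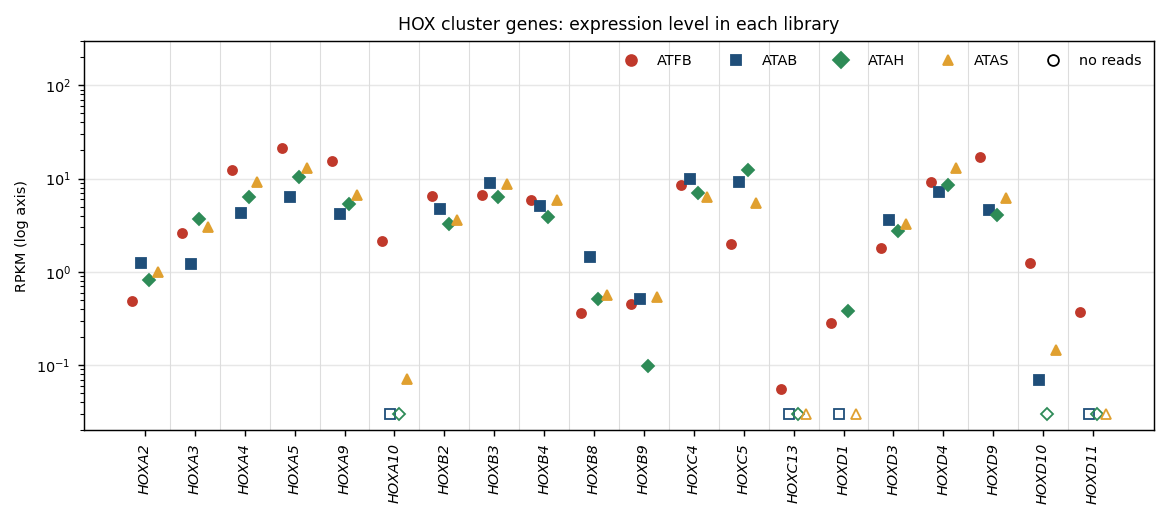
Expression level (RPKM, log axis) of 20 HOX genes in the 4 libraries, ordered by cluster and paralog number, with 1 point per library. Open symbols at the bottom stand for 0 reads and have no level. The ATFB points of HOXA4, HOXA5, HOXA9, HOXA10, HOXB2, HOXB4, HOXC13, HOXD9, HOXD10 and HOXD11 lie above all adult points. Those of HOXA2, HOXB8, HOXC5 and HOXD3 lie below them.

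In paralog group 9, HOXA9 and HOXD9 were well covered in every library. HOXA9 (Bt.27144) had 482 reads in the fetus and 140, 173 and 211 in bull, heifer and steer, which are 15.3, 4.21, 5.39 and 6.58 RPKM. Against ATFB its log2 ratio was -1.86 in ATAB (95% interval -2.15 to -1.59), -1.51 in ATAH (-1.77 to -1.25) and -1.22 in ATAS (-1.46 to -0.98). The intervals follow Clopper and Pearson for how a gene's reads divide between both libraries, and they cover counting error only. HOXD9 (Bt.6669) had 565, 163, 140 and 212 reads in the same order, or 16.9, 4.62, 4.11 and 6.24 RPKM. Its log2 ratio to ATFB was -1.87 (-2.13 to -1.62), -2.04 (-2.32 to -1.77) and -1.44 (-1.68 to -1.21). In both genes the adult libraries lay close together and ATFB stood above them. HOXB9 (Bt.69910) had only 9, 11, 2 and 11 reads, or 0.448, 0.518, 0.0975 and 0.537 RPKM, and no difference of it was called.

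The genes of paralog groups 10, 11 and 13 had most of their reads in ATFB, at low levels. HOXA10 (Bt.40557) had 59 reads in ATFB, covering 48.9% of the sequence, while bull and heifer had none and the steer had 2. This gave 2.14 RPKM in ATFB and 0.0711 RPKM in ATAS. Reading 0 as up to 3 reads, which is 0.103 RPKM in ATAB and 0.106 in ATAH, it was at least 20.8-fold lower in ATAB and at least 20.1-fold lower in ATAH, and its log2 ratio was -4.91 in ATAS (-7.99 to -2.99). HOXD10 (Bt.24731) had 34, 2, 0 and 4 reads, or 1.25, 0.0697, 0 and 0.145 RPKM. It was at least 11.6-fold lower in ATAH than in ATFB, with log2 ratios of -4.17 in ATAB (-7.27 to -2.20) and -3.11 in ATAS (-5.07 to -1.63). HOXD11 (Bt.87148), a gene of the outer limb, had 11 reads and 0.369 RPKM in ATFB and no read in an adult library, each 0 allowing at most 0.0989 RPKM. It was at least 3.88-fold lower in ATAB, where the call fell just inside the FDR threshold at 0.00099 and was lost with TMM or DESeq2 scaling. In ATAH (0.00116) and ATAS (0.00110) the FDR fell just outside the threshold. HOXC13 (Bt.27555), a gene of hair and nail, had 2 reads in ATFB (0.0552 RPKM) and none elsewhere, too few to compare.

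HOXA4 and HOXA5 were highest in ATFB and lowest in the bull. HOXA5 (Bt.11342), which is used in trunk and lung development, had 551 reads in the fetus and 171, 273 and 338 in bull, heifer and steer, or 21.4, 6.30, 10.4 and 12.9 RPKM. Its log2 ratio to ATFB was -1.77 in ATAB (-2.02 to -1.52), -1.04 in ATAH (-1.26 to -0.83) and -0.73 in ATAS, where it was not called. HOXA4 (Bt.59423) had 314, 116, 165 and 235 reads, or 12.4, 4.32, 6.36 and 9.08 RPKM, with a call in ATAB alone (-1.52, -1.84 to -1.21). Both genes had the order ATFB, ATAS, ATAH, ATAB from high to low.

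HOXC5 (Bt.93629) went the other way. It had 23 reads in the fetus and 111, 143 and 64 in bull, heifer and steer, or 2.01, 9.15, 12.2 and 5.48 RPKM. The log2 ratio to ATFB was 2.19 in ATAB (1.53 to 2.91), 2.61 in ATAH (1.96 to 3.31) and 1.45 in ATAS (0.74 to 2.21). With ACTB as the scaling gene the ratio in ATAS was no longer called. Its neighbour HOXC4 (Bt.29064) had 221, 271, 185 and 166 reads, or 8.62, 9.995, 7.07 and 6.36 RPKM, and was not called in any comparison. HOXC4 and HOXC5 lie side by side in the RefSeq gene order of ARS-UCD2.0, and the difference between their ratios was not tested.

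Of the remaining HOX genes, 3 were called in 1 comparison with ATFB each. HOXA3 (Bt.87350) had 100, 50, 145 and 119 reads in ATFB, ATAB, ATAH and ATAS, or 2.59, 1.22, 3.67 and 3.02 RPKM, and was lower in ATAB than in ATFB (-1.08, -1.60 to -0.58), a call that TMM and DESeq2 scaling removed. HOXB2 (Bt.17183) had 150, 113, 76 and 83 reads, or 6.58, 4.69, 3.27 and 3.57 RPKM, and was lower in ATAH than in ATFB (-1.01, -1.43 to -0.60). HOXD3 (Bt.105461) had 51, 108, 81 and 94 reads, or 1.78, 3.56, 2.77 and 3.22 RPKM, and was higher in ATAB (1.002, 0.51 to 1.51). The last 2 of these ratios lay at the 2-fold limit itself, and scaling by ACTB removed the call of HOXD3.

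Among the genes without a call against ATFB, HOXB3 (Bt.27955) had 298, 420, 286 and 397 reads, or 6.71, 8.95, 6.31 and 8.78 RPKM. HOXB4 (Bt.46279) had 184, 168, 121 and 186 reads, or 5.95, 5.13, 3.83 and 5.90 RPKM. HOXD4 (Bt.41501) had 231, 189, 221 and 330 reads, or 9.19, 7.11, 8.61 and 12.9 RPKM. These 3 anterior genes were well covered in every library and none was called. Of the low genes, HOXA2 (Bt.111374) had 10, 27, 17 and 21 reads, or 0.486, 1.24, 0.810 and 1.003 RPKM. HOXB8 (Bt.68643) had 7, 29, 10 and 11 reads, or 0.366, 1.43, 0.512 and 0.565 RPKM, and HOXD1 (Bt.104076) had 8, 0, 11 and 0 reads, or 0.285 RPKM in ATFB and 0.384 in ATAH. HOXA2 and HOXB8 were lowest in ATFB. HOXB8 was 3.92-fold higher in ATAB by its RPKM (log2 ratio 1.97, 0.75 to 3.41), and its FDR of 0.00102 lay just outside the threshold. The HOX genes called higher in ATAB numbered 3 in place of 2 with a minimum of 10 reads or with TMM or DESeq2 scaling.

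**Figure D2:**
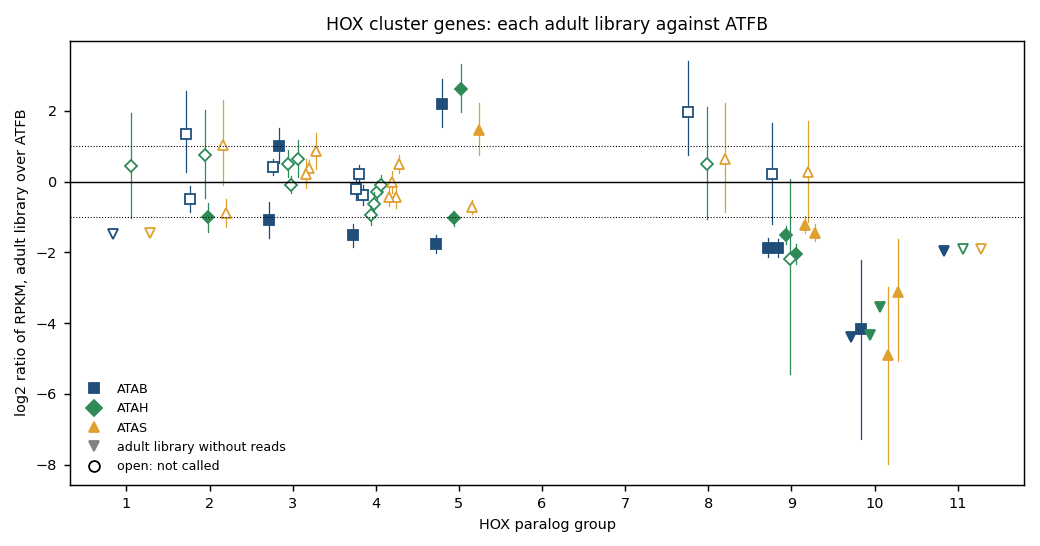
Log2 ratio of RPKM of each adult library over ATFB (vertical axis) against the HOX paralog group (horizontal axis), with 95% intervals of counting error as lines. Filled symbols were called, open ones were not, and downward triangles mark an adult library with 0 reads, drawn at the bound that 3 reads give, with HOXC13 left out for its 2 reads. Called values above 0 belong to HOXC5 and HOXD3 alone, and the called values of all other genes lie below 0.

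A cluster was called between a pair of libraries when the exact binomial test of its reads had an FDR of 0.001 or less over all clusters tested and the log2 ratio of RPKM was at least 1 in size. Such a test compares the libraries and not the conditions. With an assumed coefficient of variation of 0.4 between samples in place of counting error alone, the calls of IRX6 in all 3 adult libraries and of HOXA10 and MKX in ATAB and ATAH stayed, and every other call of a member in this text between a pair of libraries was lost. Between ATFB and ATAB, 10 of 21 HOX genes were called, 2 higher and 8 lower in ATAB, while 22.9% of all 34096 tested clusters were called, 9.61% higher and 13.3% lower. The direction over all clusters depended on the scaling, since 3278 higher and 4530 lower became 3977 and 3505 with TMM, 3816 and 3647 with DESeq2 and 2496 and 6065 with ACTB, and the HOX genes became 3 higher and 6 lower with TMM or DESeq2. Between ATFB and ATAH, 1 HOX gene was higher and 6 were lower in ATAH, with 24.1% of all clusters called, 14.0% higher and 10% lower. Between ATFB and ATAS, 1 was higher and 4 were lower in ATAS, with 26.3% called, 15.6% higher and 10.8% lower. With ACTB the lower clusters outnumbered the higher ones here too, 4969 against 3650 in ATAH and 5037 against 4237 in ATAS. The share of HOX genes called was thus 47.6%, 33.3% and 23.8%, and the last lay near that of all clusters. The 3 comparisons share the ATFB library. The median log2 ratio over the 19 HOX genes with at least 10 reads was -0.37, -0.63 and -0.01, against -0.17, 0.11 and 0.13 over all clusters with as many reads.

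HOXA9, HOXA10, HOXD9 and HOXD10 were called lower in all 3 adult libraries and HOXC5 higher, where 6.19% of all clusters were called lower in all 3 and 6.85% higher. By level alone, ATFB was above each adult library for 10 of the 21 HOX genes (47.6%) and below each for 5, against 36.5% and 30.7% of all clusters. When the HOX genes were split at paralog group 9, a split made after their values were seen, all 4 genes called lower in every adult library fell among the 7 of groups 9 to 13 and none among the 14 of groups 1 to 8. The summed level of groups 9 to 13 was 36.5 RPKM in ATFB and 9.42, 9.60 and 13.6 RPKM in ATAB, ATAH and ATAS, which was 31.8%, 12.9%, 12.6% and 15.6% of the level of all HOX genes. Most of this sum in each library was HOXA9 and HOXD9, at 15.3 and 16.9 RPKM in ATFB, while HOXB9 was not called. Groups 1 to 8 summed to 78.5, 63.8, 66.6 and 73.5 RPKM. By cluster, the 7 HOXA genes summed to 54.5 RPKM in ATFB and 18.0, 27.0 and 33.4 RPKM in the adults, and the 3 HOXC genes to 10.7 and 19.1, 19.3 and 11.8 RPKM. The 6 HOXD genes summed to 29.8, 15.4, 15.9 and 22.5 RPKM and the 5 HOXB genes to 20.1, 20.7, 14.0 and 19.4 RPKM.

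ATFB was also set against the 3 adult libraries together in edgeR's quasi-likelihood test, in which the spread came from the adult libraries alone and held their differences of sex and castration. The fetal side was 1 library with no spread of its own and was assumed to vary like the adults, so a call says that this library differed from the adult libraries. Of the 19 HOX genes tested, 5 were higher in ATFB at an FDR of 0.05 or less and none was lower, HOXC5 being the 1 gene lower at an unadjusted p under 0.05, with 18.2% of all 25584 tested clusters called, 8.40% higher and 9.83% lower. These were HOXA9 (log2 fold change 1.55, FDR 0.0158), HOXD9 (1.79, FDR 0.0146), HOXA5 (1.18, FDR 0.0468), HOXA10 (FDR 0.0139) and HOXD10 (FDR 0.0401) in the edgeR test. For HOXC5 edgeR gave -2.13 with an FDR of 0.0545. DESeq2 called it and HOXA9, HOXD9, HOXA5, HOXA10 and HOXD10. With library totals in place of TMM factors the call of HOXA5 was lost. Without ATAH, only 3 HOX genes were called by edgeR and HOXA5 and HOXD10 were no longer among them.

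Outside the HOX clusters, 7 of 83 genes were called lower in all 3 adult libraries than in ATFB and 5 were called higher in all 3, beside 6.19% and 6.85% of all clusters, so these counts lie near the background. By level alone, ATFB was above each adult library for 28 of the 83 (33.7%) and below each for 30 (36.1%), against 36.5% and 30.7% of all clusters. The 7 called lower were PRRX2, SHOX2, EMX2, MEIS3, MKX, IRX6 and BARX2, and DLX5, SATB1, CUX1 and PBX4 were among the 5. Homeoboxes are shown for 6 of the genes that the differences below turn on, read from the deposited sequences as above. IRX6 belongs to the TALE class, whose homeobox is 3 codons longer, 189 bases.
PRRX2: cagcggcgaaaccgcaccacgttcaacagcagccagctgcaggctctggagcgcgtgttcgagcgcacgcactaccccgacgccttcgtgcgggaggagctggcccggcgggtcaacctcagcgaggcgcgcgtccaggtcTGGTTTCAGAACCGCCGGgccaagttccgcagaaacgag
SHOX2: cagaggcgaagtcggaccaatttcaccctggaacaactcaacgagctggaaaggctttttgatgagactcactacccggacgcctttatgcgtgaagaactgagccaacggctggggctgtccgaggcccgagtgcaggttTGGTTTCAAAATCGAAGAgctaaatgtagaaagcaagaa
EMX2: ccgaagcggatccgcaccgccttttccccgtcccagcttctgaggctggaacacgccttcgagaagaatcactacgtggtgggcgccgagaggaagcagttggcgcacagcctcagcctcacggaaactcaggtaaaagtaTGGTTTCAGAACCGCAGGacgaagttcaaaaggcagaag
IRX6: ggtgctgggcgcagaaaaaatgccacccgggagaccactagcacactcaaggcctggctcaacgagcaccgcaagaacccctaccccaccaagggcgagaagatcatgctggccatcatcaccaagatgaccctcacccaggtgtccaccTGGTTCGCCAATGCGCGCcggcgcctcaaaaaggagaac
DLX5: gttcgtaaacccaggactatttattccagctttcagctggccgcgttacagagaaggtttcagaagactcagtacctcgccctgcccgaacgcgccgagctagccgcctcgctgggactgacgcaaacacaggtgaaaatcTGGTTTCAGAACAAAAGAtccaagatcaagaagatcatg
LHX6: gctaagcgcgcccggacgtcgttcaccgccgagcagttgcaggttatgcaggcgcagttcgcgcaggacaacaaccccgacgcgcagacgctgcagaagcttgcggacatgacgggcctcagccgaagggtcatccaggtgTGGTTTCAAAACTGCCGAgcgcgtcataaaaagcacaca
The homeoboxes of PRRX2 and SHOX2, both of the PRD class, shared 62.2% of their bases, and those of EMX2 and DLX5, both of the ANTP class, shared 51.1%. The capitals of EMX2 were the same 18 bases as those of HOXA10, and the capitals of IRX6 matched those of PRRX2 at 9 places.

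PRRX2 (Bt.11694), a factor of limb and skin mesenchyme, had the highest mean level of any homeobox gene. It had 2483 reads in the fetus and 559, 248 and 302 in bull, heifer and steer, or 147, 31.3, 14.4 and 17.5 RPKM. The log2 ratio to ATFB was -2.23 in ATAB (-2.37 to -2.10), -3.35 in ATAH (-3.55 to -3.16) and -3.07 in ATAS (-3.24 to -2.89). The adult libraries were all low and the bull was the highest of them. SHOX2 (Bt.59425), of the same class and known for limb growth, had 491, 114, 97 and 109 reads, or 20.9, 4.59, 4.05 and 4.56 RPKM. Its log2 ratio was -2.19, -2.37 and -2.20, nearly the same in the 3 adult libraries. EMX2 (Bt.27308), known from brain, urogenital tract and shoulder blade, had 938, 201, 153 and 198 reads, or 27.7, 5.61, 4.42 and 5.74 RPKM. It showed the same step, with log2 ratios of -2.30, -2.65 and -2.27.

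In the TALE class, IRX6 (Bt.41621), an Iroquois gene, was almost absent from adult fat, with 252 reads in ATFB and 4, 2 and 3 in ATAB, ATAH and ATAS, or 7.09, 0.106, 0.0551 and 0.0829 RPKM. Its log2 ratio was -6.06 in ATAB (-7.94 to -4.68), -7.01 in ATAH (-10.06 to -5.14) and -6.42 in ATAS (-8.71 to -4.86). The genes IRX3, IRX5 and IRX6 follow each other in the RefSeq order of ARS-UCD2.0, and the other two did not show this step. IRX5 had 128, 69, 75 and 87 reads, or 4.18, 2.13, 2.40 and 2.79 RPKM, with no call, and IRX3 had 161, 272, 470 and 377 reads, or 6.10, 9.74, 17.4 and 14.0 RPKM, and was called higher in ATAH and ATAS. MKX (Bt.34544), a regulator of tendon, had 184, 3, 6 and 50 reads, or 6.88, 0.106, 0.220 and 1.84 RPKM. Its log2 ratio to ATFB was -6.02 in ATAB (-8.31 to -4.45), -4.97 in ATAH (-6.43 to -3.82) and -1.91 in ATAS (-2.39 to -1.45), so the steer stood between the fetus and the other adults.

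Among the HOX partners of the TALE class, calls went in both directions. MEIS3 (Bt.8031) was higher in ATFB, with 633, 262, 252 and 302 reads, or 26.7, 10.5, 10.4 and 12.5 RPKM, and log2 ratios of -1.35, -1.36 and -1.09. PBX4 (Bt.106505) had no read in ATFB, which allows up to 0.135 RPKM, and 13, 15 and 21 in bull, heifer and steer, or 0.553, 0.661 and 0.927 RPKM, so it was at least 4.10-fold, 4.90-fold and 6.87-fold higher. With ACTB scaling its call in ATAB was lost. MEIS1, MEIS2, PBX2, PBX3 and PKNOX1 had no call in any comparison, at 3.14 to 5.15, 4.45 to 7.25, 19.001 to 31.9, 10.1 to 16.1 and 5.09 to 7.98 RPKM over the libraries.

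BARX2 (Bt.27698), of the ANTP class, had 13 reads in ATFB (0.464 RPKM) and none in the adult libraries, at least 4.58-fold, 4.42-fold and 4.41-fold lower in ATAB, ATAH and ATAS. DLX5 (Bt.16059), of the same class and a factor of bone and appendage formation, was higher in the adults. It had 8 reads in ATFB and 61, 77 and 76 in ATAB, ATAH and ATAS, or 0.367, 2.65, 3.46 and 3.42 RPKM, with log2 ratios of 2.85 (1.78 to 4.13), 3.24 (2.19 to 4.50) and 3.22 (2.17 to 4.48). SATB1 (Bt.44470) and CUX1 (Bt.8487), of the CUT class, rose in each adult library. SATB1, which organizes chromatin and is known from T cells, had 89, 479, 537 and 627 reads, or 1.51, 7.68, 8.92 and 10.4 RPKM, and log2 ratios of 2.35, 2.56 and 2.79. CUX1 had 190, 610, 679 and 752 reads, or 2.24, 6.79, 7.83 and 8.69 RPKM, and log2 ratios of 1.60, 1.81 and 1.96. The T cell marker CD3E moved with SATB1, at 8, 60, 115 and 165 reads, and its part in the level of SATB1 was not tested.

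**Figure D3:**
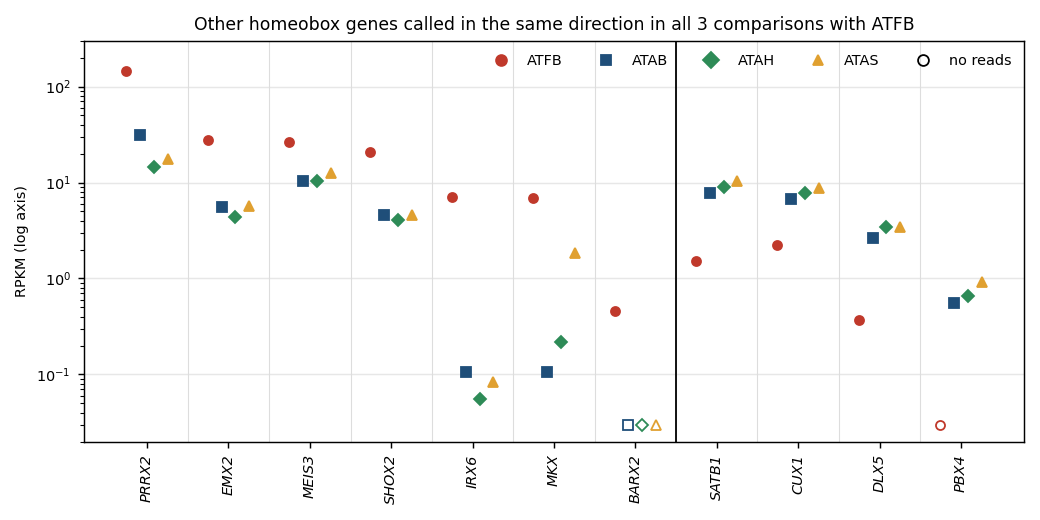
Expression level (RPKM, log axis) in the 4 libraries of 11 homeobox genes outside the HOX clusters that were called in the same direction in all 3 comparisons with ATFB, 1 point per library. The 7 genes left of the black line lie higher in ATFB and the 4 on its right lie lower, and open symbols at the bottom stand for 0 reads.

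The 83 other genes were called in both directions. In ATAB 5 were higher and 14 lower than in ATFB, of 75 tested (25.3%), beside 22.9% of all clusters. In ATAH 14 were higher and 13 lower, of 80 tested (33.8%), beside 24.1% of all clusters. In ATAS 13 were higher and 10 lower, of 76 tested (30.3%), beside 26.3% of all clusters. The median log2 ratio over those with at least 10 reads was -0.09, 0.34 and 0.46, against -0.17, 0.11 and 0.13 over all clusters. Scaling by ACTB turned the split of all 104 members from 15 higher and 19 lower into 11 and 25 in ATAH and from 14 and 14 into 12 and 22 in ATAS. In the edgeR test of ATFB against the 3 adult libraries, 60 were tested, 8 were higher in ATFB and 5 lower (21.7%, beside 18.2% of all clusters). The 8 were IRX6 (FDR 0.00506), EMX2 (0.00851), SHOX2 (0.00891), PRRX2 (0.0179), MEIS3 (0.0201), ZEB1 (0.0279), HLX (0.0380) and HHEX (0.0385), by edgeR's test with Benjamini-Hochberg adjustment. With library totals in place of TMM factors the calls of ZEB1, HLX and HHEX were lost, and the DESeq2 test did not call HLX or HHEX. Among the 5 lower in ATFB by the same edgeR test were SATB1 (FDR 0.00861), CUX1 (0.0141), DLX5 (0.0150) and PBX4 (0.0316). MKX missed the edgeR threshold (FDR 0.0642), its adult levels ranging from 0.106 to 1.84 RPKM, and BARX2 had too few reads to be tested. Without ATAH, 11 members in all were called in place of 18, and MEIS3, PBX4, ZEB1, HLX and HHEX were no longer among them, while 29 were called without ATAB. The share of all clusters moved the same way, from 18.2% to 9.35% without ATAH and 28.3% without ATAB.

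The 10 other genes with the highest mean level included PRRX2 and MEIS3, given above, and TGIF1, given with the adult comparisons. MEOX2 (Bt.63482), a factor of vessel and muscle, had 61.3 RPKM in ATFB and 26.2, 29.3 and 40.3 RPKM in ATAB, ATAH and ATAS, lower in ATAB (-1.23) and in ATAH (-1.06). ZEB1 (Bt.5549), a repressor of epithelial genes, had 28.3, 9.52, 13.6 and 14.8 RPKM, with log2 ratios of -1.57, -1.05 and -0.93, the last not called. The blood and vessel factors HHEX and HLX, which were not among these 10, had 15.8, 6.58, 8.95 and 9.16 RPKM and 8.43, 3.23, 4.64 and 4.60 RPKM, called lower in ATAB alone (-1.26 and -1.39). Of the 10, those not called in any comparison were PBXIP1 at 25.3 to 41.6 RPKM, PBX2 at 19.001 to 31.9 RPKM, ADNP at 19.3 to 27.0 RPKM and ZHX1 at 8.93 to 17.7 RPKM, each in at least 635 reads per library.

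**Figure D4:**
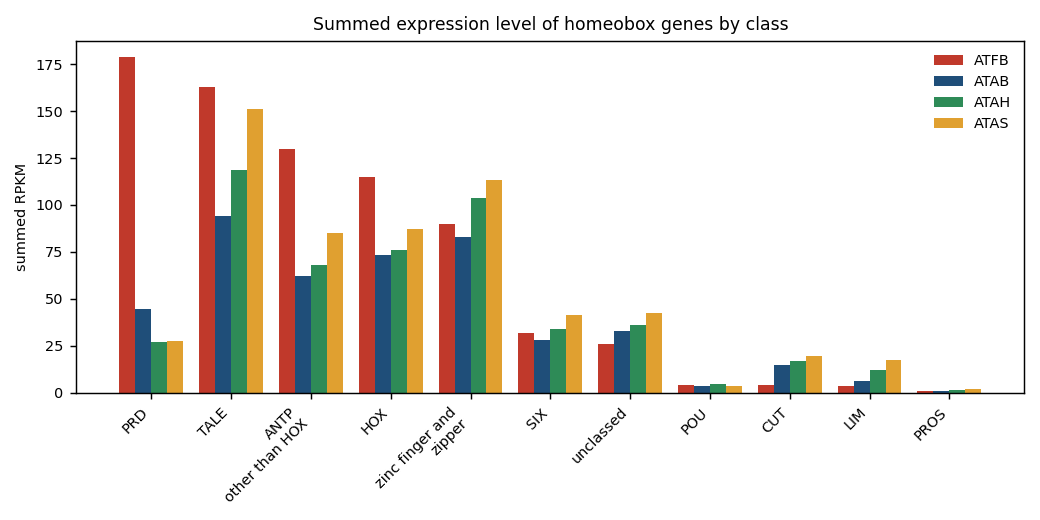
Summed RPKM (vertical axis, from 0) of the members of each homeobox class (horizontal axis) in the 4 libraries, 1 bar per library and with no error since each group had 1 library. The PRD bar of ATFB, 179 RPKM against 44.7, 27.0 and 27.8 RPKM, is mostly PRRX2, and the LIM and CUT bars are lowest in ATFB.

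By class, the 9 PRD genes summed to 179 RPKM in ATFB, of which PRRX2 was 147, and to 44.7, 27.0 and 27.8 RPKM in ATAB, ATAH and ATAS. The 21 ANTP genes other than HOX summed to 130 RPKM in ATFB and 62.2, 68.1 and 85.0 RPKM in the adults. The 17 TALE genes summed to 163, 94.1, 119 and 151 RPKM. The 5 CUT genes summed to 3.91, 14.7, 17.1 and 19.7 RPKM and the 7 LIM genes to 3.70, 6.11, 12.2 and 17.5 RPKM, mostly LHX6. The 9 zinc finger and zipper genes were each read in all 4 libraries and summed to 89.9, 83.0, 104 and 113 RPKM. The 6 POU genes summed to between 3.63 and 4.43 RPKM and the PROX1 and PROX2 pair to between 0.968 and 1.88 RPKM.

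Between adult libraries, 4 HOX genes and 8 others were called. Between ATAB and ATAH, 1 of 18 HOX genes and 3 of 73 others were called, with 5.58% of all clusters, 4.32% higher and 1.26% lower in ATAH. Between ATAB and ATAS, 3 of 18 HOX genes and 5 of 70 others were called, with 8.88% of all clusters, 7% higher and 1.89% lower in ATAS. This imbalance over all clusters depended on the scaling, since TMM turned 1464 higher and 426 lower in ATAH into 716 and 749, and 2359 higher and 636 lower in ATAS into 1153 and 1182. Between ATAH and ATAS, 1 of 19 HOX genes and 5 of 75 others were called, with 3.08% of all clusters, 1.59% higher and 1.49% lower in ATAS. DESeq2 scaling gave 3 members higher and 2 lower in ATAH than in ATAB, in place of 3 and 1. The 16.7% of HOX genes called between the bull and the steer were 3 genes of cluster HOXA. HOXA3 was higher in ATAH (1.59, 1.11 to 2.08) and in ATAS (1.30, 0.82 to 1.81) than in ATAB. HOXA4 (1.07, 0.75 to 1.41) and HOXA5 (1.04, 0.77 to 1.31) were higher in ATAS than in ATAB, at the 2-fold limit. TMM or DESeq2 scaling, which lowers every ATAS to ATAB ratio by 0.29 or 0.30 on the log2 scale, removed the calls of HOXA4 and HOXA5 and turned the split of all members between the bull and the steer from 7 higher and 1 lower in ATAS into 4 higher and 4 lower. HOXC5 was lower in ATAS than in ATAH (-1.16, -1.61 to -0.72).

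LHX6 (Bt.32055), a LIM factor known from interneurons and jaw, had 61 reads in the fetus and 123, 301 and 446 in bull, heifer and steer, or 2.04, 3.90, 9.88 and 14.7 RPKM. It was higher than in ATAB by a log2 ratio of 1.34 in ATAH (1.03 to 1.66) and 1.91 in ATAS (1.62 to 2.21), and it was called higher than in ATFB in ATAH and ATAS. The order rose from the fetus over the bull and the heifer to the steer. TGIF1 (Bt.49627), a TALE repressor of TGF-beta and retinoid signals, had 1286, 240, 413 and 846 reads, or 54.1, 9.55, 17.0 and 34.9 RPKM. It was higher in ATAS than in ATAB (1.87, 1.66 to 2.08) and in ATAH (1.04, 0.87 to 1.21), and lower than in ATFB in ATAB (-2.50) and in ATAH (-1.67). MKX, given above, was higher in ATAS than in ATAB (4.11, 2.48 to 6.44) and in ATAH (3.06, 1.84 to 4.58). In TGIF1 and MKX the steer had the highest of the adult levels and the bull the lowest.

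IRX1 (Bt.88414) was high in the heifer alone, with 38 reads in the fetus and 29, 144 and 26 in bull, heifer and steer, or 1.80, 1.30, 6.68 and 1.21 RPKM. Its log2 ratio was 2.36 in ATAH against ATAB (1.78 to 2.99) and -2.47 in ATAS against ATAH (-3.13 to -1.86). GSC (Bt.106434), the goosecoid gene of the early embryo, was low in the steer alone, with 76, 89, 83 and 34 reads, or 6.43, 7.12, 6.88 and 2.82 RPKM. It was lower in ATAS than in ATAB (-1.33, -1.95 to -0.75) and in ATAH (-1.28, -1.91 to -0.69). PRRX2 was lower in ATAH than in ATAB (-1.12, -1.34 to -0.90). PROX1 (Bt.106201), the factor of lymphatic vessels, had 29, 26, 14 and 51 reads, or 0.858, 0.727, 0.406 and 1.48 RPKM, and was higher in ATAS than in ATAH (1.87, 0.99 to 2.84). Each of these differences rested on 1 pool of 5 animals a side.

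**Figure D5:**
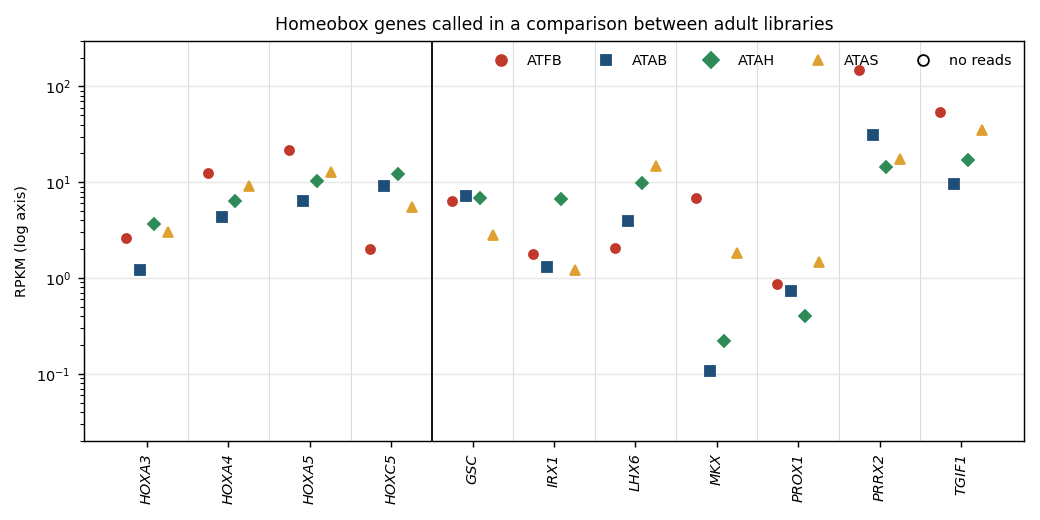
Expression level (RPKM, log axis) in the 4 libraries of 11 homeobox genes called in at least 1 comparison between adult libraries, 4 HOX genes left of the black line and 7 others right of it, 1 point per library. IRX1 stands out in ATAH, MKX in ATAS among the adults, and GSC is lowest in ATAS.

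Of the other 57 genes outside the HOX clusters, 32 had reads in every library, at mean levels of 0.139 to 13.1 RPKM, and 9 of them were called in 1 or 2 of the comparisons with ATFB, 3 lower and 6 higher in the adults, while 23 had no such call. Of all clusters with a read in every library, 26.0% were called in 1 or 2 of these comparisons. For the 32, log2 ratios to ATFB ran from -2.77 to 2.85. SIX5 (Bt.26127) had 714, 430, 305 and 324 reads, or 16.3, 9.29, 6.82 and 7.26 RPKM, and was called lower in ATAH (-1.26) and ATAS (-1.17). ZHX2 (Bt.20822), a zinc finger and homeobox protein, had 315, 521, 678 and 884 reads, or 5.16, 8.07, 10.9 and 14.2 RPKM, and was called higher in ATAH (1.08) and ATAS (1.46), the first of which TMM, DESeq2 and ACTB scaling removed. The other 25 had no read in at least 1 library and 1 to 33 reads over all 4, among them 14 without a read in ATFB and 6 with reads in ATFB alone. LHX2, a factor of the hair follicle among other tissues, had 11 reads in ATFB and none in the adults and was called in ATAB, a call that TMM and DESeq2 scaling removed. POU5F1, the pluripotency factor OCT4, had no read in ATFB and 10, 8 and 15 in ATAB, ATAH and ATAS, called in ATAS, and as a gene with many near-identical copies its reads are uncertain. OTP had 0, 4, 18 and 4 reads and was called in ATAH.

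Regulators of homeobox genes were also measured, from lists of genes that are not members. Polycomb proteins keep HOX genes silent, and of 12 measured of 14 listed none was called in ATAB, 1 was higher and 1 lower in ATAH, and 2 were higher and 1 lower in ATAS than in ATFB, where 22.9%, 24.1% and 26.3% of all clusters were called. EZH2, the methyltransferase of this system in dividing cells, had 8.47 RPKM in ATFB and 5.16, 3.03 and 3.09 RPKM in ATAB, ATAH and ATAS, called lower in ATAH and ATAS, while its relative EZH1 had 11.4, 14.7, 21.96 and 30.4 RPKM, called higher in ATAS. Of 5 measured of 10 listed Trithorax and MLL genes, which keep HOX genes active, 1 was called higher in every adult library, as were 6.85% of all clusters. It was a cluster described as MLL2 and read here as KMT2D, although that name has also been used for KMT2B, with 116, 1312, 2300 and 2818 reads. The other four were not called against ATFB, and of them KDM6A was higher in ATAH than in ATAB (1.13). Geminin (GMNN), which holds back both DNA replication and HOX proteins, had 21.0 RPKM in ATFB and 6.38, 4.47 and 6.38 RPKM in the adults and was lower in all 3.

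Retinoic acid induces HOX genes in order along the clusters, and of 12 of its 15 listed genes 3 were higher and 1 lower in ATAB, 2 higher and 2 lower in ATAH, and 3 higher and 2 lower in ATAS than in ATFB, where 22.9%, 24.1% and 26.3% of all clusters were called. ALDH1A1, which makes retinoic acid, had 62.9 RPKM in ATFB and 260, 294 and 317 RPKM in the adults, and the receptor RXRG had 11.7, 24.2, 23.8 and 26.1 RPKM, each higher in all 3. The log2 ratios of RXRG, 1.05, 1.02 and 1.16, lay at the 2-fold limit, and ACTB scaling takes all 3 below it, as TMM scaling does in ATAH. CYP26B1, which degrades it, had 1.73, 8.04, 3.11 and 6.56 RPKM, called in ATAB and ATAS. The cluster of CRABP1 with the most reads, a binding protein of retinoic acid, had 408 reads in ATFB and 2, 0 and 15 in the adults, while its second cluster went the other way.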

How the data were processed

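Each of the 4 libraries came from the pooled subcutaneous fat of 5 Qinchuan animals. The submitters' processing notes name CASAVA. The authors cleaned the reads, aligned them with SOAPaligner and deposited, for each UniGene cluster, uniquely matched read counts without normalization, the RPKM computed from these counts, and the percent of the sequence that reads covered. Library totals were the summed deposited counts, 15.3 to 16.1 M reads. Groups came from the sample labels. Headers of the deposited sequence file gave the members (headers with "mRNA sequence" left out), with symbols from their accessions (48), from the header itself (12) or from the description (43), and 1 member kept a locus name. The members, gene lists and named-gene rule were chosen with earlier results of these data known.

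Pairs of libraries were compared by exact two-sided binomial tests (edgeR 4.0.16, R 4.3.3) on clusters with a read in either, with Benjamini-Hochberg adjustment, and called at an FDR of 0.001 and a log2 ratio of 1. A count of 0 was read as 3 reads. ATFB against the 3 adult libraries was fitted with TMM factors and edgeR's quasi-likelihood test after filterByExpr (FDR 0.05), with DESeq2 1.42.0 as the other tool. Alternatives were TMM, DESeq2 or ACTB scaling, library totals in the quasi-likelihood test, a minimum of 10 reads, added clusters of 1 symbol, an assumed coefficient of variation of 0.4, and leaving out each adult library. Tests were checked on simulated data. Named were all HOX genes, the others called in the same direction in all 3 ATFB comparisons or between adults, and the 10 highest by mean RPKM; HHEX, HLX, IRX3, IRX5, SIX5, ZHX2 and some TALE members without a call were named after their values were seen. Some genes and sequences that this rule covers are not reported here, though the counts include them. Homeoboxes were located within the coding region that the header states in 87 of 104 members. Intervals and limits cover counting error only. The study's qRT-PCR, splicing and variant data were not used here.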

Additional observations from a re-analysis of the deposited data

How the results depend on the processing

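Of the calls of single members, 8 were lost with TMM scaling, 9 with DESeq2 size factors and 8 with ACTB scaling, and no direction was reversed under any alternative. TMM factors moved the log2 ratio of every gene by 0.18, -0.10 and -0.12 for bull, heifer and steer against ATFB, and by -0.28 and -0.29 in ATAH and ATAS against ATAB. The higher and lower members then numbered 9 and 19 in place of 7 and 22 in ATAB, 13 and 22 in place of 15 and 19 in ATAH, and 14 and 18 in place of 14 and 14 in ATAS. With ACTB scaling they numbered 11 and 25 in ATAH and 12 and 22 in ATAS. An exact edgeR test without replicates requires an assumed spread, and a coefficient of variation of 0.4 between libraries was taken. The edgeR test of ATFB against the adults estimated 0.301. Over all clusters, 0.4 left 98 higher and 86 lower of 34096 tested in ATAB, 142 and 87 of 34589 in ATAH and 184 and 94 of 34474 in ATAS. It left 3, 3 and 1 members for bull, heifer and steer against ATFB, where counting error alone gave 29, 34 and 28. In each adult comparison it left 0 members, where counting error alone gave 4, 8 and 6. The 7 calls that stayed were those of IRX6 in all 3 adult libraries and of HOXA10 and MKX in ATAB and ATAH. In the edgeR test of ATFB against the adults, 18 members were called, and leaving out 1 adult library gave between 11 and 29, the lowest without ATAH, 25 without ATAS and the highest without ATAB, with 18.2% of all clusters called and 9.35%, 20.8% and 28.3% without ATAH, ATAS and ATAB. Without ATAH, HOXA5, HOXD10, MEIS3, PBX4, ZEB1, HHEX and HLX were no longer called. With library totals in place of TMM factors, 14 members were called and HOXA5, ZEB1, HHEX and HLX were lost, and DESeq2's test lost HHEX and HLX. Low depth limits the members under about 10 reads, for which no difference was detectable. No paired analysis was possible because each group had 1 library, so that its replicate number pairs no animals.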
